A study of Drosophila melanogaster with 15 samples.

Results

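The genes w, v, y, st, bw and cn are the classical eye and body color genes of Drosophila. They were chosen by symbol, as 6 of the 15682 gene symbols counted, and followed across the 5 genotypes of an RNA-seq experiment on filleted larvae of the third instar, which hold mainly body wall muscle and epidermis. Each genotype had 3 biological replicates, for 15 libraries. All genotypes carried Mef2-Gal4, a driver active in body wall muscle and also in visceral muscle and a few brain cells. Mef2>+ came from a cross to w1118 and carried no second transgene. Mef2>Deaf1 carried UAS-Deaf1, and the libraries labelled Gsk3CA carried, by their label, UAS-Gsk3CA. Mef2>whiteRNAi carried a hairpin against w, and Mef2>Deaf1RNAi a hairpin against Deaf1. The w hairpin was the study's control for the Deaf1 hairpin, so 1 of the 6 genes was also a knockdown target.

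The products of these genes make or move pigment. The brown ommochromes of the fly eye are made from tryptophan: v encodes tryptophan dioxygenase, which takes the first step, and cn encodes kynurenine monooxygenase, which acts further down. The red pteridines are the other eye pigments. The transporter subunits encoded by w, st and bw load both kinds of precursor into pigment granules, the product of w pairing with that of st for ommochromes and with that of bw for pteridines. The secreted product of y is needed for black pigment in the cuticle, and v, w and st also act in Malpighian tubules, where tryptophan metabolites are stored. Fly stocks use the same genes as visible markers. A small functional copy of w, mini-white, marks many UAS insertions, and many hairpin insertions carry a copy of v and are kept in stocks mutant for y and v. The allele w1118 is a null of w. Which marker alleles the stocks here carried is not given in the sources used here, and counts by symbol cannot tell a chromosomal w from a copy on a transgene.

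In the BDGP6 annotation w (FBgn0003996, minus strand) lies at X:2790599-2796466, v (FBgn0003965, plus strand) at X:10923972-10925631, y (FBgn0004034, plus strand) at X:356509-361245 and st (FBgn0003515, plus strand) at 3L:16497651-16500460. The genes bw (FBgn0000241) and cn (FBgn0000337) lie on 2R. The reads had been aligned to the older build BDGP5, so these positions serve for orientation only. The exons of w, v, y and st overlapped no other annotated exon. Those of bw shared 456 bases with mi on the opposite strand, and those of cn shared 1229 bases with asRNA:CR45108 on the opposite strand. Whether strand was used in counting is not given in the sources used here, so reads of bw and mi, and of cn and its antisense partner, may not have been kept apart.

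Libraries held between 16186361 and 32756446 counts on genes. Levels are given as CPM, the counts per 1000000 counts on genes after TMM scaling, and 3 counts in a library stood for 0.0877 to 0.202 CPM. As a check of the labels, Deaf1 averaged 41.8 ± 2.69 CPM with the w hairpin and 22.9 ± 1.23 CPM with its own (SD over 3 libraries, log2 fold change −0.87, SE 0.10, adjusted p = 0.000903). UAS-Deaf1 libraries averaged 43.2 ± 3.92 CPM of Deaf1 and those of Mef2>+ 34.8 CPM (log2 fold change 0.31, SE 0.10, adjusted p = 0.0581). The Gsk3 gene sgg gave a log2 fold change of 0.12 (SE 0.24, adjusted p = 0.779) between the libraries labelled Gsk3CA and Mef2>+, so the sgg counts do not bear out the label. The paper itself reports raised Gsk3 levels with Gsk3 overexpression and significantly raised Deaf1 mRNA with UAS-Deaf1. Replicate 3 of the libraries labelled Gsk3CA stood apart from replicates 1 and 2 in fat body and testis markers. The log2 fold changes of w, v, y, st and bw in these libraries are given with and without it. Mef2>+ replicate 3 stood apart too, with a fat body sum of 6874.9 CPM against 2745.1 and 2515.9 CPM in replicates 1 and 2. Its testis sum was 83.1 CPM against 34.7 and 33.3 CPM, and it stayed in the main fit. All adjusted p-values are from the quasi-likelihood test of edgeR, adjusted by the Benjamini-Hochberg method over 10930 genes, and a gene was called changed at an adjusted p under 0.05. All 12 muscle markers were measured, and their summed level ran from 64816.9 to 100914.9 CPM in Mef2>+ and Mef2>Deaf1RNAi, 42002.9 to 57637.0 CPM in the libraries labelled Gsk3CA, and 17054.9 to 45630.2 CPM in Mef2>whiteRNAi and Mef2>Deaf1. In RNA from whole fillets, fewer cells of a type and less RNA per cell cannot be told apart.

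Expression of the 6 genes differed widely in level. Per kilobase of exon, the median over the 15 libraries was 13.1 CPM for w, 0.799 for v, 0.381 for bw, 0.0618 for y, 0.0516 for st and 0.0309 for cn. In the mean CPM of tested genes, w stood above 65.5% of them, v above 19.3% and y above 2.34%. Over the whole series w gathered 10109 counts, bw 713, v 539, y 137, st 58 and cn 36. Only w was therefore measured with high counts in every library. The low-count filter asked for about 0.466 CPM in a group-sized number of libraries, and w, v, bw and y passed it. The last of these passed only through the 3 libraries labelled Gsk3CA, the genotype in which it was highest, so its passing the filter already required a difference. The genes st and cn did not pass, and their tests come from a fit with no filter over 14322 genes.

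**Figure D1:**
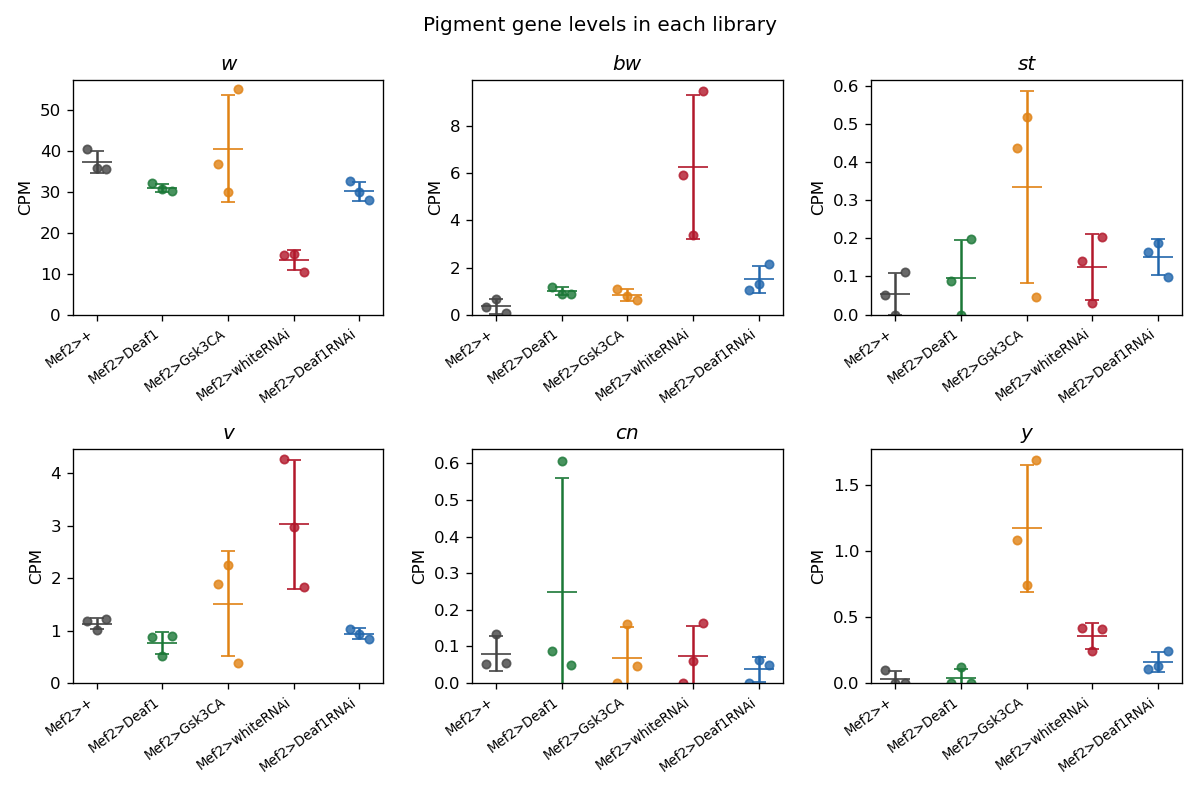
CPM of w, v, y, st, bw and cn (y axes, linear, 1 panel per gene) in the 15 libraries by genotype (x axis), with points for single libraries and bars for the mean and SD of 3 libraries (SD bars end at 0). The 3 Mef2>whiteRNAi libraries lie lowest for w, between 10.5 and 14.9 CPM, and highest for bw, between 3.38 and 9.49 CPM, while y is highest in the 3 libraries labelled Gsk3CA.

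The transporter gene w was lowest in the genotype carrying its hairpin. Mef2>whiteRNAi libraries stood at 14.6, 14.9 and 10.5 CPM (replicates 1, 2 and 3, as in all lists below), against 40.5, 35.8 and 35.6 CPM in Mef2>+. Every library with the w hairpin lay below every other library of the series. The mean fell from 37.3 ± 2.79 to 13.3 ± 2.45 CPM (n = 3 each), which is 2.8 times lower on the fitted scale (log2 fold change −1.48, SE 0.19, adjusted p = 0.000988). The call held under every alternative setting and with each library left out, which gave values between −1.58 and −1.34. Counts of w thus remained in every library with the hairpin. Mef2-Gal4 is active in only some of the cells of a fillet, and the cells from which the remaining w counts came were not resolved.

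The other 4 genotypes lay close together in w. Mef2>Deaf1RNAi libraries were at 32.6, 30.0 and 27.9 CPM, Mef2>Deaf1 libraries at 32.1, 30.7 and 30.2 CPM, and the libraries labelled Gsk3CA at 36.7, 29.9 and 55.1 CPM. In order of mean level, the libraries labelled Gsk3CA (40.6 ± 13.0 CPM) and Mef2>+ overlapped, Mef2>Deaf1 (31.0 ± 0.958 CPM) lay below Mef2>+ with no overlap, and Mef2>Deaf1RNAi (30.2 ± 2.35 CPM) overlapped Mef2>Deaf1. Neither step down from Mef2>+ passed the test: the log2 fold change was −0.27 (SE 0.19, adjusted p = 0.416) for Mef2>Deaf1 and −0.31 (SE 0.19, adjusted p = 0.31) for Mef2>Deaf1RNAi. Their 95% intervals ran from −0.68 to 0.14 and from −0.72 to 0.11. The 55.1 CPM of replicate 3 set the direction for the libraries labelled Gsk3CA, whose log2 fold change was 0.12 (adjusted p = 0.714) with it and −0.04 without it. Between the study's hairpin genotypes, w was 2.26 times higher in Mef2>Deaf1RNAi than in Mef2>whiteRNAi (log2 fold change 1.18, SE 0.19, adjusted p = 0.00405). The summed muscle markers were at 17054.9 to 45630.2 CPM in Mef2>whiteRNAi and 20495.9 to 29636.7 CPM in Mef2>Deaf1. Their part in the w values was not tested.

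The tested genes beside w, CG32795 and Syx4, did not fall with it. CG32795, annotated 32 bases from w, was at 35.0 CPM in Mef2>whiteRNAi and 37.4 CPM in Mef2>+ (log2 fold change −0.10, adjusted p = 0.365). The next on that side, Syx4, which encodes a syntaxin of vesicle fusion, was at 14.0 and 14.3 CPM (log2 fold change −0.02, adjusted p = 0.947). On the other side CG14416 and CG12498 did not pass the low-count filter, so whether they fell could not be judged. CG14416 had means of at most 0.0346 CPM. CG12498 averaged 1.57 CPM in the libraries labelled Gsk3CA, from 64, 75 and 9 counts, and at most 0.111 CPM in the other genotypes. Mef2>Deaf1RNAi did exceed Mef2>whiteRNAi in CG32795, with 44.7 against 35.0 CPM (log2 fold change 0.36, SE 0.08, adjusted p = 0.016).

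Expression of bw, the pteridine partner of w, went the opposite way. It stood at 5.91, 3.38 and 9.49 CPM in Mef2>whiteRNAi and at 0.307, 0.675 and 0.0554 CPM in Mef2>+, the latter resting on 6, 10 and 1 counts. All 3 libraries with the w hairpin lay above the other 12. The mean rose from 0.346 ± 0.311 to 6.26 ± 3.07 CPM (n = 3 each), a log2 fold change of 4.19 (SE 0.67, adjusted p = 0.00272). The ratio of the pooled counts was 18.4, with an exact 95% interval of 11.4 to 31.9 that covers counting error only. The call held under every alternative setting and with each library left out, which gave values from 3.68 to 5.05, the highest without Mef2>+ replicate 2.

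The other genotypes were intermediate in bw. Mef2>Deaf1RNAi libraries were at 1.04, 1.32 and 2.15 CPM, Mef2>Deaf1 libraries at 1.19, 0.890 and 0.891 CPM, and those labelled Gsk3CA at 1.08, 0.807 and 0.611 CPM. Mef2>Deaf1RNAi and Mef2>Deaf1 each lay above Mef2>+ without overlap, but the tests missed the threshold, with log2 fold changes of 2.14 (SE 0.63, adjusted p = 0.0585) and 1.54 (SE 0.63, adjusted p = 0.144). Both comparisons share the Mef2>+ libraries, and leaving out Mef2>+ replicate 2, the highest of them, brought both past the threshold (adjusted p = 0.0348 and 0.0492). For the libraries labelled Gsk3CA the log2 fold change was 1.29 (SE 0.63, adjusted p = 0.164), and 1.59 (adjusted p = 0.109) without replicate 3. Mef2>Deaf1RNAi lay below Mef2>whiteRNAi without overlap, with a log2 fold change of −2.05 (SE 0.59) and an adjusted p of 0.0508, which DESeq2 lowered to 0.0023.

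The gene mi, named here after its values were seen because its exons overlap those of bw on the opposite strand, moved with bw on a smaller scale. In single libraries mi was at 25.3, 21.1 and 28.1 CPM in Mef2>whiteRNAi and 19.0, 17.6 and 17.8 CPM in Mef2>+, which differed by 0.45 in log2 (SE 0.09, adjusted p = 0.00815). Among the Mef2>whiteRNAi libraries both genes were highest in replicate 3 and lowest in replicate 2. The mean of mi rose by an amount of the same order as that of bw, from 18.1 to 24.8 CPM, and the part that reads shared between them play in either value was not tested.

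The tryptophan dioxygenase gene v was highest on average in Mef2>whiteRNAi, at 4.28, 2.98 and 1.83 CPM. Mef2>+ libraries were at 1.18, 1.01 and 1.22 CPM, Mef2>Deaf1RNAi at 1.04, 0.945 and 0.832 CPM and Mef2>Deaf1 at 0.883, 0.526 and 0.891 CPM. The libraries labelled Gsk3CA split widely, with 1.90 and 2.26 CPM in replicates 1 and 2 and 0.376 CPM in replicate 3, which overlapped every neighbour in the order. Mef2>whiteRNAi lay above Mef2>+ and above Mef2>Deaf1RNAi without overlap. Neither difference passed the test, with log2 fold changes of 1.41 against Mef2>+ (SE 0.53, adjusted p = 0.0908) and −1.68 for Mef2>Deaf1RNAi against Mef2>whiteRNAi (SE 0.54, adjusted p = 0.0734). The second did pass with DESeq2 (adjusted p = 0.026) and with only the 6 libraries compared in the model (adjusted p = 0.0465). The log2 fold change was −0.57 (SE 0.54, adjusted p = 0.549) for Mef2>Deaf1 and 0.42 (SE 0.52, adjusted p = 0.625) for the libraries labelled Gsk3CA, each against Mef2>+. Without replicate 3 the latter was 0.99 (SE 0.38, adjusted p = 0.0768).

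Mef2>Deaf1RNAi, which also carries a hairpin, had 0.940 ± 0.105 CPM of v against 1.14 ± 0.109 CPM in Mef2>+ (log2 fold change −0.27, SE 0.53, adjusted p = 0.774, 95% interval −1.44 to 0.89). The level of v ran beside that of fat body markers. All 6 fat body markers were measured in every library, none at 0, and their summed level was 10583.1, 7776.1 and 7099.5 CPM in Mef2>whiteRNAi, in the same order of replicates as v. In the libraries labelled Gsk3CA it was 6151.7, 6308.2 and 1003.5 CPM, again in the order of v. It ranged from 2515.9 to 6874.9 CPM in Mef2>+, 3413.0 to 6745.2 CPM in Mef2>Deaf1 and 2784.3 to 4849.6 CPM in Mef2>Deaf1RNAi. Sums of 6067.2 to 6874.9 CPM in Mef2>+ replicate 3 and Mef2>Deaf1 replicates 1 and 3 went with only 0.883 to 1.22 CPM of v. The part of fat body RNA in the v values was not tested.

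**Figure D2:**
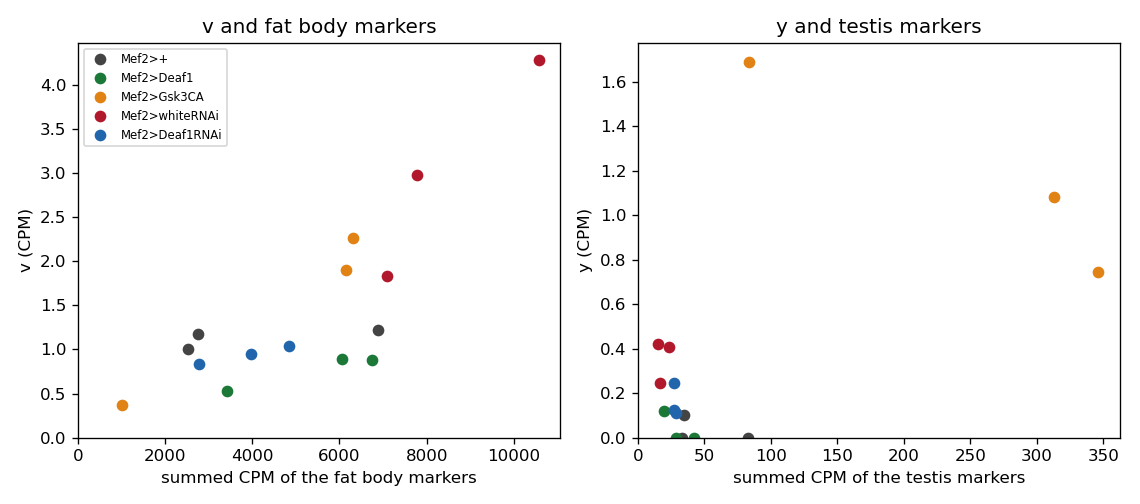
Left, CPM of v (y axis) against the summed CPM of 6 fat body markers (x axis); right, CPM of y (y axis) against the summed CPM of 11 testis markers (x axis), with 1 point per library colored by genotype. The 3 Mef2>whiteRNAi libraries hold the highest fat body sums, from 7099.5 CPM up, while y is highest in the library labelled Gsk3CA whose testis sum of 83.4 CPM is the lowest of its genotype.

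Of the 7 listed Malpighian tubule markers, 6 were found under their symbols, and their summed level was 40.4 to 55.0 CPM in Mef2>whiteRNAi against 67.7 to 69.9 CPM in Mef2>+. The defining marker Uro, urate oxidase, was at 0 in 1 Mef2>whiteRNAi library. Eye disc markers, 6 of 6 measured, summed to 376.5 to 474.7 CPM in Mef2>whiteRNAi and 234.7 to 387.0 CPM in Mef2>+. Their mean was highest in Mef2>Deaf1, at 520.1 CPM, the genotype with the lowest mean of v.

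Of the genes next to v, CG43901 at 536 bases had 6.74, 0.800 and 9.37 CPM in Mef2>whiteRNAi and a mean of 1.18 CPM in Mef2>+ (log2 fold change 2.25, SE 0.98, adjusted p = 0.133). It was low in a replicate where v was not. On the other side CG2145 was at 81.7 and 83.8 CPM in the same genotypes, and Myo10A, an unconventional myosin, at 93.6 and 108.2 CPM. The fourth, CG15208, had 13.7, 16.2 and 3.24 CPM in the libraries labelled Gsk3CA and genotype means of at most 0.808 CPM elsewhere. Its log2 fold change was 3.75 (SE 1.34, adjusted p = 0.0777) against Mef2>+, and 4.29 (adjusted p = 0.0439) without replicate 3. Elsewhere only Mef2>+ replicate 3, at 2.27 CPM, and Mef2>Deaf1 replicate 3, at 0.693 CPM, lay above the filter's 0.466 CPM. In the main fit it thus passed only with the libraries where it was highest, and that test is no separate evidence of a difference. Nothing is read from the pass without replicate 3, which was singled out after the data were seen.

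The cuticle pigment gene y was near the limit of detection except in the libraries labelled Gsk3CA, at 1.08, 0.743 and 1.69 CPM, from 37, 23 and 36 counts. The 3 Mef2>+ libraries held 2, 0 and 0 counts, and the 3 Mef2>Deaf1 libraries 0, 3 and 0. Every library labelled Gsk3CA thus lay above all others. The log2 fold change against Mef2>+ was 4.78 (SE 1.08, adjusted p = 0.0162), and the ratio of the pooled counts, 96 against 2, was 29.1 with an exact 95% counting interval of 7.84 to 243.6. As y passed the low-count filter only through the libraries labelled Gsk3CA, the test is no separate evidence of a difference. The call was lost when only the 6 libraries compared entered the model (adjusted p = 0.0941) and without Mef2>+ replicate 2 or Gsk3CA replicate 1 (adjusted p = 0.0521 and 0.0533). Without replicate 3 of the libraries labelled Gsk3CA it was 4.55 and still called. Without Mef2>+ replicate 1, which held the 2 counts, Mef2>+ had no y count left and the fitted value of 7.73 is no estimate of size.

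Both hairpin genotypes lay between. Mef2>whiteRNAi libraries had 0.419, 0.246 and 0.407 CPM of y, from 9, 8 and 10 counts, and Mef2>Deaf1RNAi libraries 0.110, 0.126 and 0.245 CPM, from 2, 2 and 5 counts. The rate ratio against Mef2>+ was 9.01 (exact 95% counting interval 2.26 to 78.2) for Mef2>whiteRNAi and 4.33 (0.895 to 41.1) for Mef2>Deaf1RNAi. Neither passed the test over libraries, with adjusted p of 0.0741 and 0.286, and DESeq2 called the first (adjusted p = 0.0353). Between the hairpin genotypes themselves the log2 fold change was −1.11 (SE 0.91, adjusted p = 0.509). With 10 counts or fewer per library in these 3 genotypes, differences in y were poorly resolved.

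Testis markers were also highest in the libraries labelled Gsk3CA. All 11 listed were found under their symbols, and their summed level was 312.9, 346.4 and 83.4 CPM in those libraries, with none at 0. In the other 12 libraries it ranged from 14.9 to 83.1 CPM, and 11 of these 12 had at least 2 of the markers at 0, most often aly and comr, which control spermatocyte transcription. The y level of 1.69 CPM in replicate 3 was the highest of the series at a testis sum like that of Mef2>+ replicate 3, where y had 0 counts. The part of testis RNA in the y values was not tested.

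Beside y lie the proneural genes ac and sc, which encode transcription factors of bristle and neuron formation. sc was at 4.19, 3.26 and 3.99 CPM in Mef2>whiteRNAi and 0.563, 0.405 and 1.66 CPM in Mef2>+, and the groups did not overlap. It rose by a log2 fold change of 2.11 (SE 0.52, adjusted p = 0.0169). The nearer ac gave 1.46 (SE 0.59, adjusted p = 0.113) in the same comparison. Neither was raised where y was highest: sc was at 0.908 CPM and ac at 0.284 CPM on average in the libraries labelled Gsk3CA, with log2 fold changes of 0.04 (adjusted p = 0.968) and −0.86 (adjusted p = 0.35) against Mef2>+. In Mef2>Deaf1RNAi sc was at 1.30 CPM, with a log2 fold change of 0.56 against Mef2>+ (SE 0.51, adjusted p = 0.497). On the other side of y, CG43182 and CG43181 had means of at most 0.115 CPM.

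The genes st and cn, the ommochrome partner of w and the later enzyme of the tryptophan route, were at or near the detection limit. The highest st levels were in the libraries labelled Gsk3CA, at 0.438, 0.517 and 0.0470 CPM from 15, 16 and 1 counts, and no other library exceeded 5 counts. Replicate 3 lay among the other genotypes, so the groups overlapped. Against Mef2>+, which held 1, 0 and 2 counts, the log2 fold change was 2.46 (SE 1.12, adjusted p = 0.153), and the pooled counts of 32 and 3 gave a rate ratio of 6.46 (exact 95% counting interval 2.02 to 33.0). Without replicate 3, a setting chosen after seeing the data, the log2 fold change was 3.03 (SE 1.01, adjusted p = 0.0585). The remaining st comparisons had log2 fold changes between 0.13 and 1.32 with adjusted p of 0.553 or more.

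For cn, 18 of all 36 counts fell in Mef2>Deaf1, and 15 of these 18 in 1 library at 0.607 CPM. No other library exceeded 5 counts. The log2 fold change of Mef2>Deaf1 against Mef2>+ was 1.63 (SE 1.23, adjusted p = 0.515). At this depth no difference in cn was detectable between genotypes. Of the genes beside st, CG33158 ranged in mean from 14.9 to 18.7 CPM and CG42514 from 1.81 to 3.68 CPM, while CG13033 and CG4229 were near 0.

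**Figure D3:**
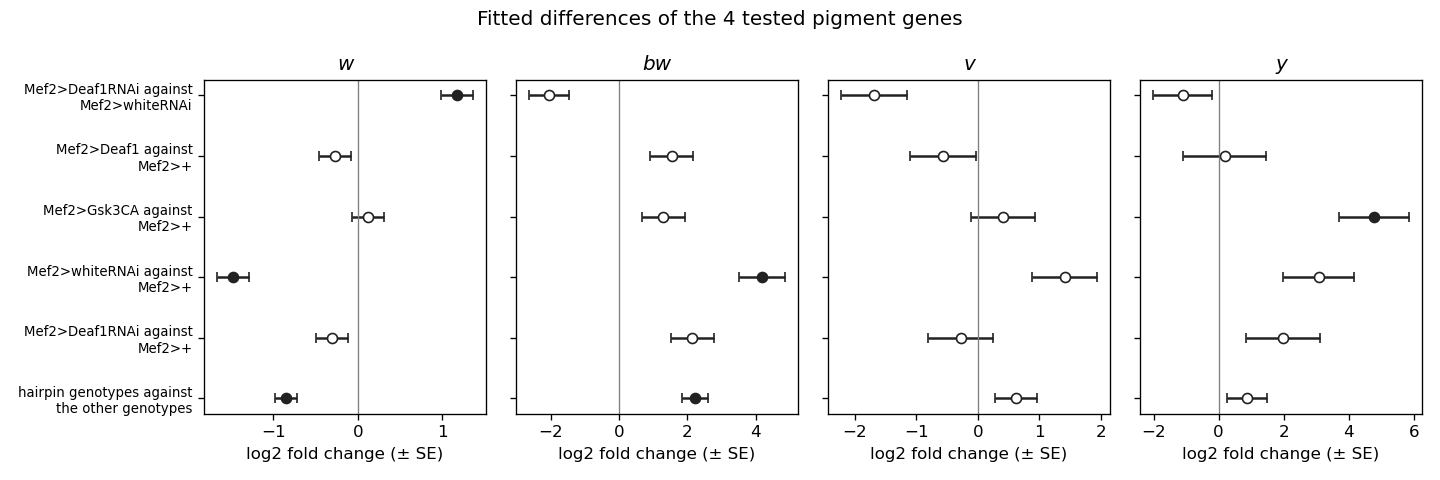
Log2 fold changes of w, bw, v and y (x axis) in 6 comparisons (y axis) from edgeR's quasi-likelihood test on 15 libraries, filled where the adjusted p was under 0.05. Bars are standard errors derived from the test's F value. Filled points are w in 3 comparisons, bw in 2 and y in 1, the extremes being −1.48 for w and 4.78 for y. The gene y passed the low-count filter only through the libraries labelled Gsk3CA.

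Set against all tested genes, the calls among the 4 tested color genes were as follows. With the Deaf1 hairpin against the w hairpin, 1 of 4 was called (w, higher), where 8.81% of all tested genes were. The libraries of all 4 did not overlap there, as was so for 30.9% of all genes. For y this rested on 0.245 CPM in Mef2>Deaf1RNAi replicate 3 against 0.246 CPM in Mef2>whiteRNAi replicate 2, from 5 and 8 counts. In Mef2>whiteRNAi against Mef2>+ 2 of 4 were called (w lower, bw higher), against 16.5% of all genes, and all 4 did not overlap, against 33.3%. As w is the target of the hairpin in Mef2>whiteRNAi, nothing is read from its call or non-overlap in either comparison. Besides w, edgeR called bw against Mef2>+ and no color gene with the Deaf1 hairpin against the w hairpin, where DESeq2 also called v and bw. For the libraries labelled Gsk3CA y was the 1 call and the 1 gene without overlap, beside 14.1% and 36.5% of all genes. Since y passed the filter through those libraries alone, nothing is read from that count, and of the other 3 genes 0 were called by edgeR, DESeq2 or limma voom and 0 had an unadjusted p under 0.05. In Mef2>Deaf1 against Mef2>+ 0 of 4 were called by edgeR, against 12.4%, with 1 at an unadjusted p under 0.05 (bw) and 0 by DESeq2 or limma voom. There 3 of 4 did not overlap, against 33.2%. In Mef2>Deaf1RNAi against Mef2>+ 0 of 4 were called by edgeR, against 8.32%, with 1 at an unadjusted p under 0.05 (bw), 1 by DESeq2 (bw) and 0 by limma voom, and 3 of 4 did not overlap, against 34.8%. One of them was y, at 0.110 CPM in Mef2>Deaf1RNAi replicate 1 against 0.102 CPM in Mef2>+ replicate 1, each from 2 counts. With so few counts, nothing is read from the non-overlap of y in the comparisons of hairpin genotypes. All comparisons against Mef2>+ share its 3 libraries, and those with Mef2>whiteRNAi share that genotype's, so the counts repeat the same libraries.

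When the mean of both hairpin genotypes was set against the mean of the other 3 on the log2 scale, 2 of 4 color genes were called, where 24.2% of all tested genes were. They were w (−0.85, SE 0.13, adjusted p = 0.00181) and bw (2.22, SE 0.38, adjusted p = 0.00364). The hairpin in Mef2>whiteRNAi targets w, so nothing is read from the w call. Both contrasts combine unlike genotypes: Mef2>Deaf1RNAi alone differed from Mef2>+ by −0.31 in w and 2.14 in bw, without passing the test. For v the contrast was 0.62 (SE 0.34, adjusted p = 0.208). For y it was 0.87 (SE 0.62, adjusted p = 0.336), although the mean CPM was lower in the hairpin genotypes, 0.259 against 0.416, since the libraries labelled Gsk3CA carry most y counts and the contrast weighs genotypes on a log scale.

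Across the 15 libraries the genes with the most similar log2 CPM were different for each color gene. For w they were CG8814 (Pearson r = 0.887), CG8801 (0.881) and Cyp4g1 (0.861), the last a cytochrome P450 of oenocytes that makes cuticular hydrocarbons. Cyp4g1 averaged 576.9 CPM in Mef2>whiteRNAi and 1061.0 CPM in Mef2>+. For v they were CG14526 (0.929), CG2233 (0.928) and Obp99c (0.925), the last an odorant binding protein gene. The mean of CG2233 was 199.0 ± 42.7 CPM in Mef2>whiteRNAi and between 68.6 and 96.2 CPM elsewhere, and within the libraries labelled Gsk3CA it reached from 17.0 to 146.8 CPM. For y they were CG9360 (0.902), cnn (0.887), which encodes a centrosome protein, and GstD5 (0.836), a glutathione transferase gene. For bw they were Pex3 (0.868), a peroxisome assembly gene, CG4022 (0.868) and CG10472 (0.855). The pairs of color genes gave r of −0.833 for w and bw, −0.69 for w and v, 0.479 for v and bw, 0.335 for y and bw, 0.195 for v and y and −0.0666 for w and y. These coefficients are descriptions over libraries that fall into 5 genotypes and share genotype differences.

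CG9360 followed y most closely at levels that were far better counted. It was at 38.1, 34.4 and 54.2 CPM in the libraries labelled Gsk3CA and 3.07, 1.62 and 4.15 CPM in Mef2>+. As for y, replicate 3 was the highest of the libraries labelled Gsk3CA. The log2 fold change was 3.83 (SE 0.34, adjusted p = 0.000104), and 3.72 without that replicate. Mef2>whiteRNAi, at 20.0, 38.7 and 21.5 CPM, and Mef2>Deaf1RNAi, at 9.87, 11.5 and 11.5 CPM, came next, with log2 fold changes against Mef2>+ of 3.17 (adjusted p = 0.000356) and 1.88 (adjusted p = 0.00598). Being chosen for its likeness to y, it gives no separate evidence on y.

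Of 8 listed genes of the ommochrome route, 5 were tested, and by edgeR CG6950 and kar were called besides w. With the Deaf1 hairpin against the w hairpin 2 of 5 were called, beside 8.81% of all tested genes. Against Mef2>+ it was 1 of 5 in Mef2>Deaf1 and 2 of 5 in Mef2>whiteRNAi, beside 12.4% and 16.5%. It was 0 of 5 for the libraries labelled Gsk3CA and Mef2>Deaf1RNAi, beside 14.1% and 8.32%. DESeq2 also called v in the first comparison and CG9542 in Mef2>Deaf1 against Mef2>+. CG6950, a kynurenine aminotransferase gene, averaged 33.9 ± 5.76 CPM with the w hairpin and 50.0 ± 3.44 CPM with the Deaf1 hairpin (log2 fold change 0.56, SE 0.11, adjusted p = 0.0115). It was also lower in Mef2>whiteRNAi than in Mef2>+ (−0.40, adjusted p = 0.0318), a call that held in 1 of 6 fits with a library left out. The gene kar, mutants of which have altered ommochromes, was at 44.4, 45.9 and 47.1 CPM in Mef2>Deaf1 and 18.5, 18.3 and 13.8 CPM in Mef2>+ (log2 fold change 1.44, SE 0.33, adjusted p = 0.0154). The median log2 fold change of the list was 0.56 for Mef2>Deaf1RNAi against Mef2>whiteRNAi and −0.40 for Mef2>whiteRNAi against Mef2>+, where all tested genes had medians of −0.05 and −0.02. These medians are over 5 genes, among them w, the target of the hairpin in Mef2>whiteRNAi, and the −0.40 is the value of CG6950. Nothing is read from them.

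Among the pteridine genes 11 of 12 were tested. The gene pr, which encodes a pteridine synthase, was at 65.7 ± 10.6 CPM in Mef2>whiteRNAi and 49.8 ± 4.21 CPM in Mef2>+ (log2 fold change 0.40, SE 0.12, adjusted p = 0.0464), a call that held in 1 of 6 fits with a library left out. With w and bw, 2 of 11 were higher and 1 was lower in that comparison, where 16.5% of all tested genes were called. The lower one was w, the hairpin target. In the hairpin contrast pr had a log2 fold change of 0.39 (SE 0.08, adjusted p = 0.00856). That call held in 5 of 5 other settings and in 15 of 15 fits with a library left out. There 3 of 11 were called, again w, bw and pr, beside 24.2% of all tested genes. In the libraries labelled Gsk3CA DhpD, which acts on dihydropterin, was lower than in Mef2>+, at 22.5 ± 1.10 against 28.5 ± 1.45 CPM (log2 fold change −0.34, SE 0.06, adjusted p = 0.00502). It was the 1 of 11 called there, beside 14.1% of all tested genes. With the Deaf1 hairpin against the w hairpin edgeR and limma voom called w alone of the 11, and DESeq2 also called bw. By edgeR 8.81% of all tested genes were called there. The list's medians ran from −0.12 to 0.24 over the 6 comparisons, and those of all tested genes from −0.0627 to −0.00478.

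All 10 listed granule genes, which serve protein sorting to pigment granules and lysosomes, were tested. By edgeR ca and g were the genes called, both at small size. With the Deaf1 hairpin against the w hairpin 1 of 10 was called, beside 8.81% of all tested genes. In Mef2>Deaf1RNAi against Mef2>+ it was 1 of 10, beside 8.32%, and in the hairpin contrast 2 of 10, beside 24.2%. In the remaining comparisons edgeR called 0 of 10. DESeq2 also called lt with the Deaf1 hairpin against the w hairpin, and, against Mef2>+, ca and dor in Mef2>Deaf1, ca in the libraries labelled Gsk3CA and g in Mef2>whiteRNAi. The log2 fold change of ca was 0.23 (SE 0.05, adjusted p = 0.0142) in Mef2>Deaf1RNAi against Mef2>whiteRNAi and 0.20 (adjusted p = 0.0262) against Mef2>+, and g gave 0.13 (adjusted p = 0.046) in the hairpin contrast. The ca call against Mef2>+ held in 0 of 6 fits with a library left out.

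The cuticle pigment list, with y itself, had 17 of 21 genes tested. By edgeR 1 of 17 was called with the Deaf1 hairpin against the w hairpin, beside 8.81% of all tested genes. Against Mef2>+ it was 2 of 17 in each of Mef2>Deaf1, Mef2>whiteRNAi and Mef2>Deaf1RNAi, beside 12.4%, 16.5% and 8.32%. In the hairpin contrast it was 3 of 17, beside 24.2%. yellow-h, a relative of y, was at 17.6 ± 2.41 CPM in Mef2>Deaf1RNAi against 9.34 ± 0.552 CPM in Mef2>whiteRNAi (log2 fold change 0.92, SE 0.15, adjusted p = 0.00359) and 10.4 ± 1.56 CPM in Mef2>+ (0.77, SE 0.15, adjusted p = 0.00977). yellow-b, another relative, was lowest in Mef2>+ and the libraries labelled Gsk3CA, at 142.8 ± 41.7 and 138.6 ± 36.5 CPM. It rose in Mef2>Deaf1 (log2 fold change 1.04, adjusted p = 0.00856), Mef2>Deaf1RNAi (0.81, adjusted p = 0.0399) and Mef2>whiteRNAi (0.73, adjusted p = 0.0368), 3 comparisons that share the same Mef2>+ libraries. With a library left out these calls held in 6, 1 and 2 of 6 fits. The laccase gene laccase2, needed for cuticle tanning, fell from 219.7 ± 39.4 to 95.9 ± 48.3 CPM in Mef2>whiteRNAi (log2 fold change −1.20, SE 0.33, adjusted p = 0.0298). The gene t, which encodes an enzyme of dopamine recovery, fell from 1.36 ± 0.379 to 0.530 ± 0.186 CPM in Mef2>Deaf1 (log2 fold change −1.36, SE 0.38, adjusted p = 0.0365). The calls of laccase2 and t each held in 2 of 6 such fits. In the libraries labelled Gsk3CA edgeR and DESeq2 called y alone of the 17, and limma voom also called yellow-d. By edgeR 14.1% of all tested genes were called there. yellow-e was called lower in the hairpin contrast alone (−0.43, adjusted p = 0.0323).

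Among the transporter relatives of w, 14 of 15 were tested. Apart from w and bw, CG3164 was at 430.5 ± 40.8 CPM in Mef2>whiteRNAi and 309.7 ± 42.7 CPM in Mef2>+ (log2 fold change 0.48, SE 0.13, adjusted p = 0.0284), a call that held in 2 of 6 fits with a library left out and 4 of 6 other settings. With w and bw it made 3 of 14 called there, beside 16.5% of all tested genes. In the hairpin contrast CG3164 had a log2 fold change of 0.355 (SE 0.08, adjusted p = 0.0162). That call held in 5 of 5 other settings and in 15 of 15 fits with a library left out. With w, the hairpin target, and bw it again made 3 of 14, beside 24.2%. CG31121 and CG11069 were higher in Mef2>Deaf1 than in Mef2>+, by 0.65 (adjusted p = 0.041) and 0.49 (adjusted p = 0.0371), and both calls held in 1 of 6 fits with a library left out. They were the 2 of 14 called there, beside 12.4%. By edgeR 0 of 14 were called in the libraries labelled Gsk3CA, beside 14.1% of all tested genes, with 1 at an unadjusted p under 0.05 and 0 by DESeq2 or limma voom. For Mef2>Deaf1RNAi against Mef2>+ edgeR called 0 of 14, beside 8.32% of all tested genes, with 4 at an unadjusted p under 0.05, 3 by DESeq2 and 0 by limma voom.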

How the data were processed

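RNA from filleted larvae was sequenced after a stranded mRNA library preparation with paired reads. Per the paper's methods the authors aligned reads with STAR to BDGP5 and counted them with HTSeq; the submitters' notes also name CASAVA 1.7. The authors deposited raw counts per gene symbol for each of 15 libraries (15682 symbols), and no column was left unmapped. Lines that name no gene held 9.31 to 15.0% of entries and were left out.

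Counts were tested with edgeR 4.0.16 in R 4.3.3 (TMM, filterByExpr with a count minimum of 10, 1 quasi-likelihood fit over the 5 genotype means, 10 residual degrees of freedom, 10930 genes). Each SE was derived as the absolute log2 fold change divided by the square root of the test's F value. The 95% intervals of log2 fold changes used a t quantile with the residual plus the median prior degrees of freedom, the same for all genes. The script was tested on simulated data. Alternatives were DESeq2's RLE size factors, no filter, DESeq2 1.42.0, limma 3.58.1 voom, the replicate number as a block, only the libraries compared, and leaving out each library. Log2 CPM used a prior count of 2. Intervals for count ratios are exact (95%) and cover counting error only. Nothing says which replicate numbers pair samples. In Mef2>Deaf1 against Mef2>+ same-numbered libraries deviated together (correlations 0.304, 0.242 and 0.478), and no color gene's call changed with the block there.

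Gene names and exon lengths came from BDGP6, matched by symbol (76.2% of symbols). The genes named are the 6 color genes, Deaf1 and sgg as label checks, the nearest 2 protein-coding neighbours on each side of w, v, y and st, called genes of 5 pathway lists (ommochrome, pteridine, granule, cuticle pigment, transporter family; at most 4 per list and comparison), and the 3 genes most correlated with each tested color gene. Named besides, after their values were seen, are mi, for its overlap with bw, and e, for its spread within genotypes. Marker lists covered muscle, fat body, testis, Malpighian tubule, eye disc and larval cuticle. Summed larval cuticle markers ranged from 42011.7 to 132873.0 CPM. The color genes and lists were chosen with earlier results of these data known.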

Additional observations from a re-analysis of the deposited data

How the results depend on the processing

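The calls of w (both hairpin comparisons and the hairpin contrast) and of bw (Mef2>whiteRNAi against Mef2>+ and the hairpin contrast) held under every alternative run. Calls of low-count color genes did not: y in the libraries labelled Gsk3CA was lost as given above, and DESeq2 added calls for v and bw in Mef2>Deaf1RNAi against Mef2>whiteRNAi, y in Mef2>whiteRNAi and bw in Mef2>Deaf1RNAi. The cause was not tested. Directions turned for w in the libraries labelled Gsk3CA without Gsk3CA replicate 3 (−0.0432, range over left-out libraries to 0.297), for y in Mef2>Deaf1 against Mef2>+ with limma voom (−0.208), without Mef2>+ replicate 2 (−0.258) or 3 (−0.34) and without Mef2>Deaf1 replicate 2 (−2.95, range to 3.15), and for sgg in the libraries labelled Gsk3CA without Mef2>+ replicate 3 (−0.111) or Gsk3CA replicate 3 (−0.00359), with a range to 0.231. None of these was called.

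Counts of called genes were 963 for Mef2>Deaf1RNAi against Mef2>whiteRNAi (DESeq2 1661, replicate block 599), 1360 for Mef2>Deaf1, 1536 for the libraries labelled Gsk3CA (replicate block 966, only the libraries compared 85), 1799 for Mef2>whiteRNAi (only the libraries compared 665), 909 for Mef2>Deaf1RNAi against Mef2>+ (DESeq2 1585, replicate block 561) and 2641 for the hairpin contrast (limma voom 1136, replicate block 1332). For the libraries labelled Gsk3CA the main fit gave 567 higher and 969 lower, and RLE size factors 759 and 543. Leaving out 1 library gave ranges of 294 (without Mef2>Deaf1RNAi replicate 2) to 1159, 711 to 958, 445 (without Gsk3CA replicate 2) to 2837 (without Mef2>+ replicate 3), 818 (without Mef2>whiteRNAi replicate 1) to 2062, 281 (without Mef2>Deaf1RNAi replicate 2) to 465, and 830 (without Mef2>Deaf1RNAi replicate 2) to 3728, in that order of comparisons. The same-numbered libraries of these comparisons had mean correlations of deviations of −0.102, 0.342, −0.663, 0.124 and −0.0607, so apart from Mef2>Deaf1 the replicate block rests on shared numbers only. The hairpin contrast has no such pairs. Depth limits y, st and cn, which had 10 counts or fewer in most libraries.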
